A study of Mus musculus with 7 samples.

Results

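Polycomb repressive complexes are chromatin-modifying machines that keep developmental genes silent, and the 10 genes described here encode core subunits of both of them. They were taken by gene symbol from the 26019 gene rows of a normalised RNA sequencing table of mouse oocytes. The list itself was chosen with earlier results of these data known. All 10 (Rnf2, Ring1, Bmi1, Pcgf1, Pcgf6, Ezh1, Ezh2, Eed, Suz12 and Jarid2) had a row. All 10 also passed the filter on low values, which asked 3 or more libraries for a value of 1 or higher, and so were among the 19227 genes tested. Every member had reads in all 7 libraries.

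The compared libraries came from Mfn2 knockout oocytes (KO, n = 3) and from wild-type oocytes (WT, n = 4). Mfn2 encodes mitofusin 2, an outer mitochondrial membrane GTPase that fuses mitochondria. The oocytes were freed from secondary follicles of C57BL/6J mice, and each library was made from 5 pooled oocytes by Smart-Seq2, a full-length cDNA method for very small samples. No drug or other agent was applied to either group. The sources used here do not give how the allele was made or whether it was deleted in oocytes alone. The labels disagree on several points. The deleted gene is Mfn2 in the series title but Mfn1 in the genotype label and in the protocol for follicle collection. The age label reads P1, whereas the protocol gives 8 weeks. The design text gives 3 mice per group, whereas 4 WT libraries are listed. The mouse behind each library is not named, so the p-values measure the spread between these samples, which may be technical. Pooled oocyte RNA also cannot tell a change in RNA per oocyte apart from a change in the cells a library holds.

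Recovered library totals lay between 6851042 and 8343915 reads in KO libraries and between 6676076 and 7741141 reads in WT libraries. Mfn2 averaged 6.49 ± 1.70 normalised counts in KO oocytes and 28.7 ± 9.56 in WT oocytes (SD, n = 3 and 4). Its log2 fold change was -1.94 (adjusted p = 0.00571 by limma), whereas Mfn1 averaged 330.3 ± 19.9 in KO and 289 ± 36.3 in WT (adjusted p = 0.499). The low counts therefore stood in the libraries titled KO, at the gene that the series title names. Of 15 oocyte markers all 15 were tested. By limma 0 were called at an adjusted p under 0.05 and 6 had an unadjusted p under 0.05. On recovered reads edgeR and DESeq2 each called 3 higher in KO (Figla, Nlrp5 and Zp2, named for this count). Over all genes tested, limma called 6.71%, 21.8% had an unadjusted p under 0.05 by limma, and edgeR called 9.16%. DESeq2 called 1442 of the 15425 genes to which it gave an adjusted p. The 15 oocyte markers had summed levels of 252233 to 417100 in KO and 215678 to 294524 in WT. Zp3 and Zp2, zona pellucida glycoproteins, were the most abundant of them.

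Polycomb repressive complex 1 (PRC1) places ubiquitin on histone H2A through a catalytic RING subunit, RNF2 (also called RING1B) or its paralog RING1, paired with one PCGF protein that defines the type of PRC1. Polycomb repressive complex 2 (PRC2) methylates histone H3 at lysine 27 through EZH2 or EZH1, held in a core with EED and SUZ12, and JARID2 is an accessory subunit that helps to bring it to chromatin. In mouse oocytes both complexes are known for shaping the chromatin state that the egg hands to the embryo, PRC1 by keeping differentiation genes silent during oocyte growth and PRC2 by laying down the histone H3 lysine 27 methylation behind maternal non-canonical imprints.

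The catalytic PRC1 genes, Rnf2 and Ring1, were the members with the largest log2 fold changes, and their proximal promoters are shown for that reason, although Ring1 was not called. The windows are the 250 bases before each RefSeq transcription start in GRCm38.p6, in the sense of the gene: chr1:151500992-151501241 on the minus strand for Rnf2 and chr17:34024681-34024930 on the minus strand for Ring1. Capitals mark GC boxes, searched as GGGCGG or its reverse complement CCGCCC.
Rnf2: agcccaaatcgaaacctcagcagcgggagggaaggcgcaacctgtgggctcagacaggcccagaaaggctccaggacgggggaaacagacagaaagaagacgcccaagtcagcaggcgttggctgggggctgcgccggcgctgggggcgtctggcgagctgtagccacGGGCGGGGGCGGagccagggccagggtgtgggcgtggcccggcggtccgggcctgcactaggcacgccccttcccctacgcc
Ring1: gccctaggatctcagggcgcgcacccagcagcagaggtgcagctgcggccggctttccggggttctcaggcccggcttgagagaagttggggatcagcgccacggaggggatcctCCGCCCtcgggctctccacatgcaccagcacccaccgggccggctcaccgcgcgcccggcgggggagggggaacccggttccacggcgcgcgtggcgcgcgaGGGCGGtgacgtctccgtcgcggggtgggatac
Each of these windows held 2 GC boxes. In Rnf2 they lay next to each other, at 82 to 77 and 76 to 71 bases before the start, and in Ring1 they lay at 135 to 130 and 33 to 28 bases before it. A GC box was present in 6 of the 9 members with an entry in the promoter table and in 32.7% of all 32851 promoters of the same length. The Rnf2 window held 20 CG dinucleotides and the Ring1 window 30, against a median of 6 over all promoters (quartiles 2 and 16). Neither window held a CCAAT or TATAAA sequence on either strand, sequences present in 33.8% and 12.4% of all promoters. Pcgf1 had no entry.

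Rnf2 transcript was higher in KO oocytes than in WT oocytes, and it was the 1 member of 10 that passed the all-gene threshold (adjusted p under 0.05, limma with Benjamini-Hochberg adjustment over the 19227 genes). The gene (ENSMUSG00000026484.13, chromosome 1, 151458004 to 151500955, minus strand, GRCm38, GENCODE M21) had 1017, 1105 and 1009.7 normalised counts in KO libraries 1 to 3, against 658, 655, 692 and 934 in WT libraries 1 to 4. All KO libraries lay above all WT libraries, the nearest being WT 4, which stood apart from the other 3 WT libraries. The means were 1044 ± 52.7 in KO and 735 ± 134 in WT (SD), a ratio of 1.42, and the fitted log2 fold change was 0.52 (SE 0.14, 95% confidence interval 0.22 to 0.82, adjusted p = 0.0341). Across all genes tested, 6.71% were called, 3.09% higher in KO and 3.63% lower in KO, so a single call among 10 members is close to that background.

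The call on Rnf2 rested on several single libraries. It was lost, with the direction kept, when KO 2, WT 1, WT 2 or WT 3 was left out (adjusted p 0.0961 to 0.1105), and without WT 4 the log2 fold change was 0.64 (adjusted p = 0.0131). On recovered reads the adjusted p was 0.0379 by edgeR, which called 9.16% of the genes it tested, and 0.0186 by DESeq2. Limma without the trend and robust steps gave 0.191. Rnf2 exons overlap those of Trmt1l, a tRNA methyltransferase-like gene on the opposite strand, and the library kit does not mark strand. The stretch in common made up 1.97% of the 75-base stretches of Rnf2, and Trmt1l itself averaged 116 ± 10.4 normalised counts in KO and 107 ± 17.7 in WT (log2 fold change 0.13, adjusted p = 0.769).

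**Figure D1:**
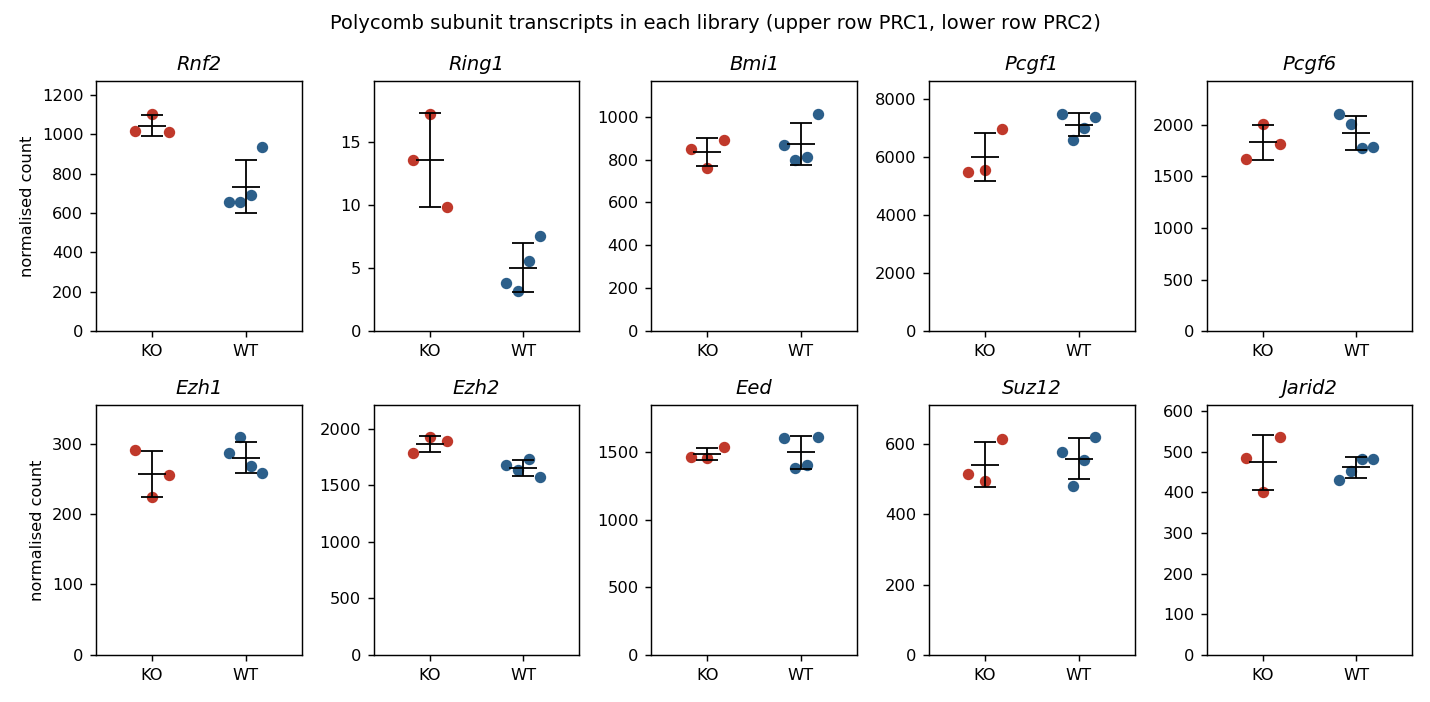
Normalised counts of the 10 Polycomb subunits, 1 panel per gene, with KO libraries left of WT libraries; points are libraries and the bars their mean and SD, on axes that start at 0. Rnf2, Ring1 and Ezh2 are the 3 genes whose KO points all lie above their WT points.

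Ring1, the paralog that can replace RNF2 as the catalytic subunit, was scarce. The gene (ENSMUSG00000024325.8, chromosome 17, 34020792 to 34024680, minus strand) had 13.6, 17.3 and 9.85 normalised counts in KO libraries, against 3.81, 3.20, 5.61 and 7.58 in WT libraries. These values stand for 15, 19 and 9 reads in KO and 4, 3, 6 and 7 reads in WT. KO values did not overlap WT values, and the means were 13.6 ± 3.71 in KO and 5.05 ± 1.97 in WT, a ratio of 2.69. The fitted log2 fold change of 1.29 (SE 0.47, 95% confidence interval 0.32 to 2.26) had an adjusted p of 0.101 and was not called.

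The direction was thus the same for both catalytic genes, but their levels were far apart. Per kilobase of exon, Rnf2 made up 98.0 to 98.8% of the 2 catalytic transcripts in KO libraries and 99.0 to 99.4% in WT libraries. The remainder, Ring1, averaged 1.62% ± 0.366 in KO and 0.848% ± 0.206 in WT (SD, n = 3 and 4), and the groups did not overlap.

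**Figure D2:**
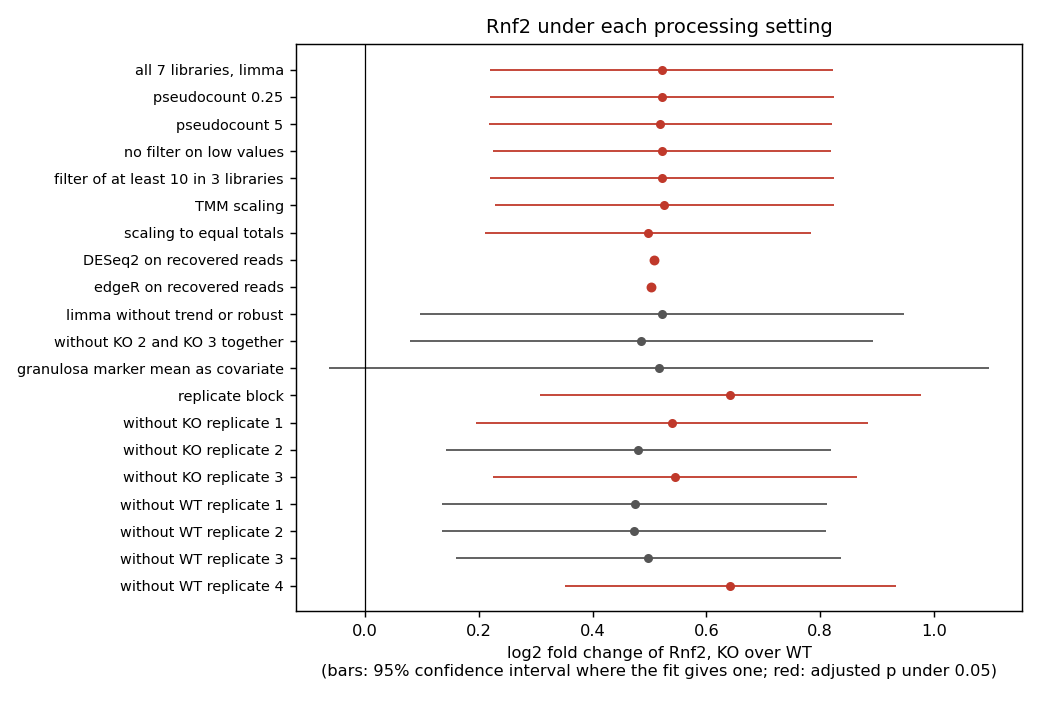
Fitted log2 fold change of Rnf2, KO over WT, under the reported fit and under each alternative. Bars are 95% confidence intervals where the fit gives one, edgeR and DESeq2 have points only, and red marks an adjusted p under 0.05. The estimate stays between 0.47 and 0.64, and the call is lost in 7 of the 19 alternatives.

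Pcgf1, the PCGF subunit of the variant PRC1.1 complex that works with KDM2B and BCOR, was the most abundant member, and its mean was lower in KO without reaching the threshold. It had 5489.8, 5537 and 6962 normalised counts in KO libraries, against 7490.4, 6596, 6988 and 7383 in WT libraries. KO 1 and KO 2 lay below all WT libraries, whereas KO 3 lay among them. The means were 5996 ± 837 in KO and 7114 ± 407 in WT, with a log2 fold change of -0.25 (SE 0.12, 95% confidence interval -0.50 to -0.01, adjusted p = 0.213). Of the 75-base stretches of Pcgf1, 9.28% also occur in Gm8930, which has its own row and averaged 1769 ± 260 in KO and 2222 ± 134 in WT (adjusted p = 0.117), so how reads were divided between them is uncertain.

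Bmi1, also known as PCGF4 and a subunit of canonical PRC1, did not differ beyond its spread. It had 851, 762 and 889 normalised counts in KO libraries, against 867, 797, 814 and 1014 in WT libraries, and the groups overlapped (log2 fold change -0.06, 95% confidence interval -0.34 to 0.22, adjusted p = 0.841). In Bmi1, 10.1% of the stretches are shared with Gm5946, which averaged 493 ± 33.9 in KO and 413 ± 93.4 in WT.

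Pcgf6, the subunit of PRC1.6, a variant complex known for silencing germline genes in embryonic cells, had 1669, 2008 and 1807 normalised counts in KO libraries, against 2105, 2002, 1775 and 1783 in WT libraries. The groups overlapped (log2 fold change -0.07, 95% confidence interval -0.33 to 0.19, adjusted p = 0.806).

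Among the 6 PCGF genes, Pcgf1 made up most of the summed level in both groups. Per kilobase of exon, Pcgf1 took 84.3 to 87.3% of the PCGF total in KO libraries and 86.4 to 87.8% in WT libraries. Pcgf6 averaged 8.65% in KO and 7.72% in WT, and Bmi1 4.97% in KO and 4.43% in WT. The other PCGF genes, Pcgf2, Pcgf3 and Pcgf5, were each below 1% in every library. Exon length is the union of all annotated exons of a gene, not the length of the transcript present. It is 1649 bases for Pcgf1, 9544 for Pcgf3 and 12629 for Pcgf5, and the shares depend on it.

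Of the 5 PRC2 members, 0 passed the limma threshold, 0 had an unadjusted p under 0.05, and 0 were called by edgeR or DESeq2. The shares of all genes tested were 6.71% past the limma threshold, 21.8% at an unadjusted p under 0.05 and 9.16% called by edgeR. Ezh2, the methyltransferase that carries most PRC2 activity in dividing cells, had 1784, 1923 and 1889 normalised counts in KO libraries, against 1678, 1637, 1736 and 1568 in WT libraries. All KO libraries lay above all WT libraries, by a small margin. The means were 1865 ± 72.3 in KO and 1655 ± 70.4 in WT, and the log2 fold change of 0.17 (SE 0.12, 95% confidence interval -0.07 to 0.42) had an adjusted p of 0.429. Rnf2, Ring1 and Ezh2 were thus the 3 of 10 members whose groups did not overlap, whereas 19.2% of all genes tested showed no overlap in either direction.

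Ezh1, the second methyltransferase and the form known from non-dividing cells, had 291, 225 and 255 normalised counts in KO libraries, against 286, 309, 268 and 258 in WT libraries. The groups overlapped (log2 fold change -0.13, 95% confidence interval -0.46 to 0.20, adjusted p = 0.694). Of the Ezh1 and Ezh2 total per kilobase of exon, Ezh2 made up 89.0% ± 1.65 in KO and 86.8% ± 0.967 in WT, with overlapping ranges of 87.2 to 90.5% and 85.5 to 87.8%.

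Eed, whose product reads methylated histone H3 and boosts the enzyme, had 1465, 1454 and 1536 normalised counts in KO libraries, against 1601, 1378, 1400.2 and 1607 in WT libraries. Its log2 fold change was -0.01 (95% confidence interval -0.26 to 0.25, adjusted p = 0.980). Suz12, which encodes the scaffold of PRC2, had 513, 495 and 614 normalised counts in KO libraries, against 577, 479, 555 and 618 in WT libraries. Its log2 fold change was -0.04 (95% confidence interval -0.35 to 0.26, adjusted p = 0.899). For both core genes the KO libraries lay inside the WT range.

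Jarid2 had 485, 400.0 and 535 normalised counts in KO libraries, against 429, 453, 481 and 482 in WT libraries. KO values lay on both sides of the WT range (log2 fold change 0.03, 95% confidence interval -0.28 to 0.33, adjusted p = 0.939). For the 8 members other than Rnf2 and Ring1, the widest limits of these intervals were -0.50 and 0.42, so a change of their mRNA by a factor below 0.707 or above 1.34 lies outside the intervals. Over the 10 members the median log2 fold change was -0.03, and over all genes tested it was -0.01.

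Relative abundance within the group was compared per kilobase of exon, because longer transcripts collect more reads. In KO oocytes the order was Pcgf1 (3636 normalised counts per kilobase), Eed (388), Pcgf6 (364), Ezh2 (279), Rnf2 (253), Bmi1 (210 ± 16.5), Suz12 (109), Jarid2 (48.7), Ezh1 (34.5) and Ring1 (4.19). In WT oocytes the order was Pcgf1 (4314), Eed (391), Pcgf6 (381), Ezh2 (248), Bmi1 (220 ± 24.8), Rnf2 (178), Suz12 (113), Jarid2 (47.5), Ezh1 (37.7) and Ring1 (1.56). Only Rnf2 and Bmi1 changed places. Neighbours whose library values overlapped were Eed and Pcgf6 and then Ezh2 and Rnf2 in KO, and Eed and Pcgf6, Ezh2 and Bmi1, and Bmi1 and Rnf2 in WT. The rest of the neighbouring pairs did not overlap. The scarcest core PRC2 gene in either group, apart from the methyltransferase Ezh1, was Suz12.

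**Figure D3:**
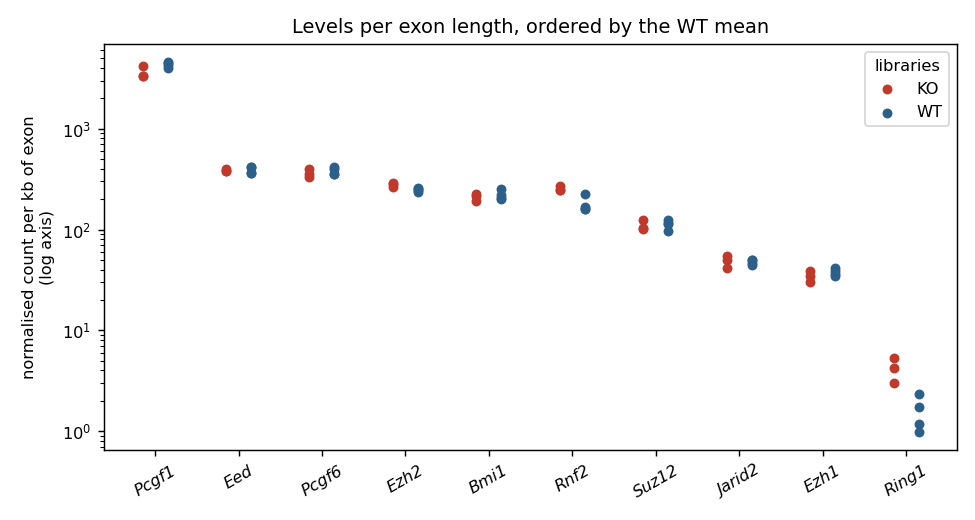
Normalised counts per kilobase of exon on a log10 axis for the 10 Polycomb subunits, KO left of WT for each gene; points are libraries. Levels run from 4.19 for Ring1 to 3636 for Pcgf1 in KO, and the order of the genes is the same in WT except that Rnf2 and Bmi1 change places.

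Other genes of the pathway were grouped by role. Of 53 listed genes that act with PRC1 or PRC2, oppose them or process their marks, 51 were tested, 1 was higher, 0 were lower and 50 were not called, beside 6.71% called over all genes. An unadjusted p under 0.05 was found for 7 of the 51, against 21.8% of all genes. Their median log2 fold change was 0.04. The 1 call was Ogt, which encodes the enzyme that attaches O-linked N-acetylglucosamine to proteins, works with the BAP1 deubiquitinase complex and is the mammalian counterpart of the fly Polycomb gene super sex combs. Ogt had 749, 848 and 893 normalised counts in KO libraries, against 506, 456, 470.1 and 529 in WT libraries. The groups were well apart, with means of 830 ± 73.8 in KO and 490.2 ± 33.2 in WT, a ratio of 1.69. The log2 fold change was 0.76 (SE 0.14, adjusted p = 0.00236), and it stayed called with any single library left out (adjusted p 0.00169 to 0.0128), but not when limma was run without the trend and robust steps (adjusted p = 0.0702).

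Of the 30 other PRC1 genes 29 were tested and 0 passed the limma threshold, beside 6.71% of all genes. An unadjusted p under 0.05 was found for 3 of the 29, beside 21.8% of all genes, and 0 were called by edgeR or DESeq2. Bcor, a PRC1.1 scaffold, averaged 59.9 ± 2.92 in KO and 36.1 ± 9.65 in WT (log2 fold change 0.75, adjusted p = 0.0983), and its KO libraries lay above all WT libraries.

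Of the 10 other PRC2 genes 9 were tested and 0 passed the limma threshold, with 3 at an unadjusted p under 0.05 and 0 called by edgeR or DESeq2, beside the same shares of all genes. Phf19, a Polycomb-like accessory subunit that binds CG-rich DNA and methylated histone H3, averaged 21.8 ± 5.06 in KO and 41.4 ± 7.27 in WT (log2 fold change -0.90, SE 0.30, adjusted p = 0.0719). Lcorl, which is related to a PRC2 accessory gene, averaged 113 ± 25.7 in KO and 71.2 ± 11.3 in WT (log2 fold change 0.65, adjusted p = 0.0852). Neither gene overlapped between the groups, and they moved in opposite directions. Among the 13 genes of erasers and their partners, the smallest p after that of Ogt was that of Kdm6b, a histone H3 lysine 27 demethylase, with 117 ± 29.7 in KO and 150.3 ± 18.4 in WT (adjusted p = 0.290).

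In all, 10 of the 51 wider genes showed no overlap between the groups, against 19.2% of all genes. Phc3, Bcor, Mtf2, Lcorl and Ogt were among the 6 that lay above WT, and Aebp2, Phf19, Lcor and Asxl3 lay below WT. Phc3, Mtf2, Aebp2, Lcor and Asxl3 are named after their values were seen, and their adjusted p values ran from 0.128 for Mtf2 to 0.458 for Lcor.

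**Figure D4:**
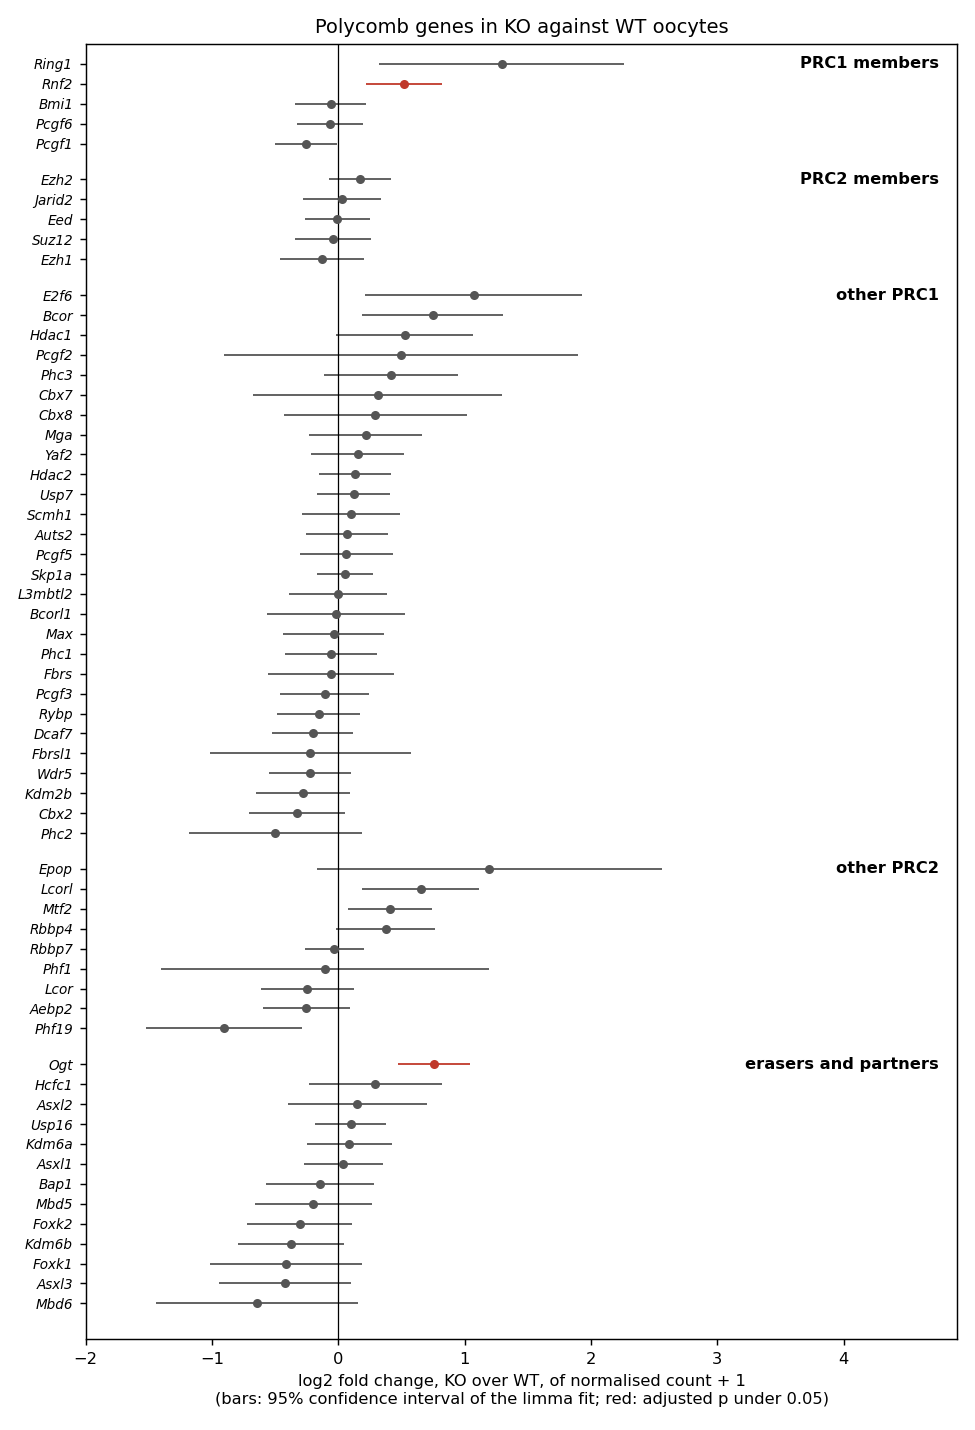
Log2 fold changes, KO over WT, of the 10 members and of 50 other Polycomb genes, grouped by complex; points are limma estimates, bars 95% confidence intervals, and red marks an adjusted p under 0.05. Rnf2 at 0.52 and Ogt at 0.76 are the 2 genes marked red.

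Genes that Polycomb complexes are known to silence, in Hox clusters, among developmental regulators and among loci with maternal histone H3 lysine 27 imprints, were mostly at or near 0 reads in both groups. Of 76 listed genes 52 had a row and 29 were tested. Among these, 1 was higher, 1 was lower and 27 were not called. Their median log2 fold change was 0.18. The share called, 6.90%, stands beside 6.71% for all genes. The 1 higher gene, Msx1, passed the filter on low values through the KO libraries alone, so this share was partly set by the filter.

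Hoxa7, a homeobox gene of the HoxA cluster, was the most abundant of the listed Hox genes and was lower in KO. It had 201, 82.7 and 162 normalised counts in KO libraries, against 271, 272, 236 and 333 in WT libraries. KO values all lay below WT values, with means of 148 ± 60.2 in KO and 278 ± 40.3 in WT. The log2 fold change was -0.98 (SE 0.24, adjusted p = 0.0258). The call was lost without KO 2, KO 3, WT 1, WT 2 or WT 4, with an adjusted p of up to 0.0827.

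Msx1, a homeobox repressor gene, had 2, 11 and 2 reads in KO libraries and 0 reads in each of the 4 WT libraries, where a count of 0 allows up to 3 reads per library (adjusted p = 0.0425). It passed the filter on low values through the KO libraries alone, so its call was partly set by the filter and is given as a description. The Msx1 call was lost without any 1 WT library (adjusted p 0.0822 to 0.0928), and without any 1 KO library the gene was no longer tested. DESeq2 gave it no adjusted p, and edgeR did not test it.

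Without Hoxa7, summed levels of the Hox genes were 28.2 to 45.5 normalised counts in KO libraries and 21.3 to 37.9 in WT libraries. With it, they were 128 to 229 in KO and 266 to 370.4 in WT. Of the 28 Hox genes in the table, 16 had a read in each KO library and 12 to 15 in the WT libraries. The developmental regulators summed to 127 to 168 in KO and 112 to 135 in WT. The imprinted loci summed to 5.47 to 13.6 in KO and 2.17 to 10.3 in WT.

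Markers of the cells around the oocyte were examined beside these results. Of 21 granulosa cell markers 18 were tested. By limma 0 of these were called higher and 2 (Cyp19a1 and Esr2) were called lower, beside 6.71% of all genes called. An unadjusted p under 0.05 was found for 11, beside 21.8% of all genes, and 15 had a log2 fold change above 0. The counts of 11 and 15 include Inhbb, with 2, 2 and 3 reads in KO libraries and 0 in each WT library. Inhbb passed the filter on low values through the KO libraries alone. On recovered reads edgeR and DESeq2 each also called 1 marker higher, Inha. Their summed level was 5185 to 6492 in KO and 4882 to 5998 in WT (2-sided exact permutation test over 35 splits, p = 0.2), with Serpine2 and Esr2 the most abundant. Their mean log2 level was 3.72, 4.76 and 4.62 in KO libraries, against 3.64, 3.06, 3.49 and 3.25 in WT libraries (exact p = 0.0286, the smallest that 35 splits can give). The inhibin gene Inha had 54.5, 395 and 338 normalised counts in KO libraries, against 66.7, 18.1, 23.4 and 11.9 in WT libraries. On the mean and on Inha, KO 2 and KO 3 thus stood apart from the other 5 libraries, whereas KO 1 lay inside the WT range for Inha. Not every marker followed this pattern. Fshr had 49.97, 9.09 and 6.56 normalised counts in KO libraries, against 14.3, 1.07, 39.3 and 2.17 in WT libraries. Inhba had a log2 fold change of -1.30 (limma adjusted p = 0.247), and Cyp19a1 and Esr2 were called lower. Inha, Fshr and Inhba are named after their values were seen.

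Rnf2 beside these markers was highest in KO 2 among KO libraries, which also had the highest granulosa sum (6492) and mean. Among WT libraries Rnf2 was highest in WT 4, which had the highest granulosa sum of that group (5998) but a mean of 3.25. That WT 4 sum was mostly Serpine2 (3740) and Esr2 (1119), and Inha in WT 4, at 11.9, was the lowest of the 7 libraries. In KO 1, with a mean of 3.72 and a sum of 5185, Rnf2 stood at 1017 normalised counts, against 658 in WT 1, with a mean of 3.64 and a sum of 5301. The part of granulosa RNA in the Rnf2 result cannot be read from these single libraries. With KO 2 and KO 3 both left out, 1 KO library stood against 4 WT libraries, and the lone KO library was assumed to vary like the WT libraries, so its p-values say little. The log2 fold change was then 0.49 for Rnf2 (adjusted p = 0.359) and 0.61 for Ogt (adjusted p = 0.158), against 0.52 and 0.76 with all libraries. A further fit took as a covariate the mean log2 level of the 18 granulosa markers tested, whereas the means above cover all 21. These 18 include Inhbb, which passed the filter on low values through the KO libraries alone, so the covariate was partly set by the group. Every KO library had a higher mean over the 21 markers than any WT library, so this fit can hardly separate the covariate from the group. With the covariate even Mfn2 was not called (limma adjusted p = 0.954). The log2 fold change of Rnf2 was then 0.52 (limma adjusted p = 0.954). That of Ogt was 0.56 with the covariate. The log2 fold change of Hoxa7 was -0.45 without KO 2 and KO 3 (adjusted p = 0.479) and -0.16 with the covariate, against -0.98 with neither. The covariate fit called 2 genes in all, and Ogt (adjusted p = 0.934), Hoxa7 (adjusted p = 0.987) and Msx1 (adjusted p = 0.967) were not among them.

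**Figure D5:**
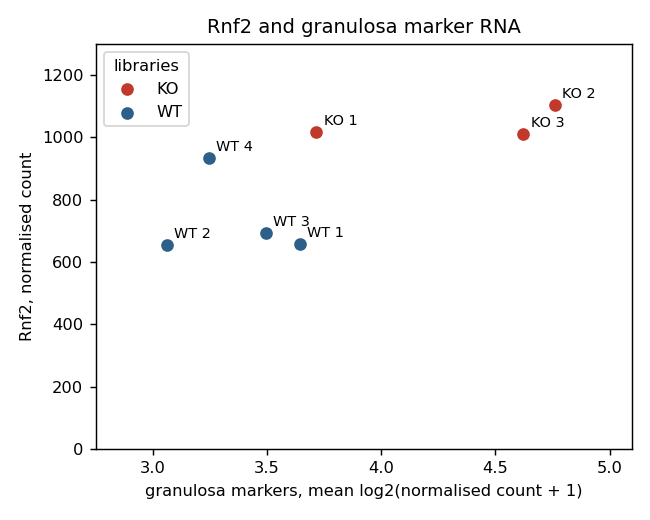
Normalised counts of Rnf2 against the mean log2 level of the granulosa markers, 1 point per library, KO and WT in 2 colours. KO 1 lies near WT 1 on the marker axis, at 3.72 and 3.64, and near KO 2 and KO 3 on the Rnf2 axis.

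Further marker lists were low or mixed. The theca and stroma markers, 7 of 12 in the table, had 0 calls by limma (1 at an unadjusted p under 0.05) and 0 by edgeR or DESeq2, and summed to 39.1 to 41.8 in KO and 23.8 to 45.8 in WT. Immune and blood markers, 7 of 11 in the table and 2 tested, summed to 183 to 275 in KO and 531 to 569 in WT. C1qb, which was called lower, made up most of each sum, at 173 to 248 in KO and 513 to 555 in WT. Cd68, the other marker tested, had a log2 fold change of 0.44 (limma adjusted p = 0.571). The rest had 0 to 4 reads per library. The endothelial markers, 5 of 6 in the table, had 0 calls by limma (0 at an unadjusted p under 0.05) and 0 by edgeR or DESeq2, and summed to 168 to 228 in KO and 193 to 228 in WT. Beside these counts, limma called 6.71% of all genes tested, and 21.8% had an unadjusted p under 0.05. No marker in the table was at 0 in every library. The part of these markers in the Polycomb results was not tested.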

How the data were processed

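Full-length cDNA libraries of 5 oocytes were sequenced as 75-base pairs from an unstranded kit, per the labels' protocols. The authors deposited a table of 26019 gene rows with normalised signal, 1 value for each library. Per the submitters' processing notes, cutadapt, FastQC, STAR, DESeq and DESeq2 were used with GRCm38 (mm10); the sources used here name no counter. Within each library the deposited values were whole multiples of 1 step: after division by it, every value below 1000 reads, and 99.96% or more of all values per library, came within 0.05 of an integer, which gave the reads behind each value and size factors of 0.914 to 1.10. The intervals and floors cover counting error or library spread only, and amplified cDNA reads are not independent molecules.

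The main test was limma 3.58.1 in R 4.3.3, with trend and robust variance, on log2(value + 1). The 19227 genes tested reached 1 normalised count in 3 or more libraries. P-values were adjusted by Benjamini-Hochberg over all 19227, and called means an adjusted p under 0.05. Log2 fold changes are KO over WT on that scale, which understates changes of low genes. Alternatives were pseudocounts of 0.25 and 5, no filter, a filter at 10, TMM, equal totals, DESeq2 1.42.0 and edgeR 4.0.16 on the recovered reads, limma without trend and robust fitting, each library left out, KO 2 and KO 3 left out together, a granulosa covariate and a replicate block. edgeR called 1240 of 13537 genes (9.16%). The fit was tested on simulated data.

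The 10 members and all gene lists were chosen with earlier results of these data known. Named genes are all members, called genes of the wider and silenced lists, the 2 smallest p in each wider list (1 of these genes is not reported here), Mfn2, Mfn1, the 3 profiles nearest to a called member, and the 2 most abundant genes of each marker list. Genes and exon lengths come from GENCODE M21, in which 10 of 10 members matched, and promoters come from RefSeq. An exon length is the union of all annotated exons of a gene. Pcgf6 was matched by name and overlap, since its model differs from the row. The lowest chi-square per degree of freedom between replicates was 5.44, so no 2 libraries agreed within sampling noise.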

Additional observations from a re-analysis of the deposited data

Results flagged for a closer look

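Of 16 genes and groups set for this check, made in WT libraries only, 1 held a library far from the others. Msx1, 1 of the 16, could not be checked, since it had 0 reads in every WT library. Rnf2 stood at 934 normalised counts in WT 4, against 655 to 692 in the other 3 WT libraries. The gap to the next library was 0.869 of the range of the group, above Dixon's 95% critical value for 4 libraries. Chance gives about 1 such library in 20 groups. Without WT 4 the log2 fold change of Rnf2, KO over WT, was 0.64 (limma adjusted p = 0.0131), against 0.52 with it.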

How the results depend on the processing

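Of 19 alternatives, Rnf2 kept its direction in all 19 and its call in 12, with log2 fold changes of 0.47 to 0.64. The KO and WT numbers do not pair the libraries by the labels. For replicates 1 to 3, deviations from the group mean were correlated between KO and WT libraries over the genes tested. These correlations were -0.140, 0.0385 and 0.0258 for same-numbered libraries and -0.112 to 0.0856 for differently numbered ones. A replicate block over pairs 1 to 3 also leaves out WT 4: it called 1010 genes, against 902 without WT 4 and no block and 1291 with all 7 libraries. Rnf2 gave 0.64 with the block (adjusted p = 0.0213) and without WT 4 alone (adjusted p = 0.0131). With the block 2 wider genes and 1 silenced gene were called. Bmi1 (0.0124), Eed (0.0276) and Suz12 (0.00805) were positive with the block and had the same values without WT 4 alone. Limma without trend and robust fitting called 106 genes, leaving out KO 2 and KO 3 called 98, and the granulosa covariate called 2 (1016 at an unadjusted p under 0.05). Each of these 3 left 0 members, 0 wider genes and 0 silenced genes called by limma (unadjusted p under 0.05 for 2, 2 and 0 members), and Mfn2 at -1.94 (adjusted p = 0.0580), -1.77 (0.158) and -1.36 (0.954). Fewer libraries entered the second, and in the covariate fit the covariate can hardly be separated from the group. The cause of the first was not tested. Ezh1 turned to 0.169 with the covariate and 0.0562 without KO 2 and KO 3. Silenced genes called fell to 1 under DESeq2, edgeR, the filter at 10 and both pseudocounts; wider genes called were 2 with no filter and with a pseudocount of 5. Calls over all genes were 1621 with no filter and 1109 (477 higher, 632 lower) with equal totals. Leaving out 1 library gave 594 to 1767 calls, 0 to 1 members, 1 to 2 wider genes and 0 to 2 silenced genes. It also gave log2 fold changes of -0.109 to 0.0124 for Bmi1, -0.0463 to 0.0276 for Eed, -0.138 to 0.0160 for Suz12 and -0.0646 to 0.145 for Jarid2. The summed granulosa difference of 658 was 388 to 1042 with 1 library left out, and as mean log2 it was 1.00 (exact p = 0.0286). At the 9 to 19 KO reads and 3 to 7 WT reads of Ring1, depth limits precision.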

Other observations

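The genes whose profiles over the 7 libraries lay nearest to that of Rnf2, among 8144 with a mean of at least 50 normalised counts, were Fbxo3, Nipa2 and Ist1. Fbxo3 encodes an F-box subunit of a ubiquitin ligase and had 219, 225 and 217 normalised counts in KO libraries, against 145, 141, 159.8 and 184 in WT libraries. Its root mean square difference from Rnf2, on the centred log2 scale, was 0.0687. The difference was 0.0757 for Nipa2, which encodes a magnesium transporter, and 0.0816 for Ist1, which encodes a partner of the membrane-remodelling ESCRT machinery. Likeness of profile over 7 libraries is a description of these libraries.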
